A study of Mus musculus with 6 samples.

Results

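The glycolysis genes described here are the 10 rows of the deposited gene table whose symbol is Slc2a1, Hk1, Hk2, Gpi1, Pfkl, Aldoa, Gapdh, Pgk1, Pgam1 or Ldha, out of 23228 genes in all. All 10 had a row, and all 10 had a mean of at least 1 FPKM (fragments counted per gene, scaled to transcript length and to the library's total) over the 6 libraries, the level above which a gene was tested. RNA was sequenced from bone marrow LSK cells, which lack lineage markers, carry Sca-1 and c-Kit, and include the blood-forming stem cells and early progenitors. The donors were wild type and Ly5.1+, the hosts were Ly5.2+ and either ICAM-1-/- (3 libraries) or wild type (WT, 3 libraries), and donor-derived LSK cells were sorted 8 weeks after the transplant. Strain C57BL/6 is given for all 6 samples, and ICAM-1, an adhesion molecule that leukocyte integrins bind, was absent from the host and not from the sorted cells. The comparison asks how a host without ICAM-1 affects the donor stem and progenitor cells it holds, read here through their glycolysis transcripts. The age of the animals, the type of ICAM-1-/- allele and whether a library pooled animals are not given, so p-values measure the spread between these libraries.

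Glycolysis splits glucose into pyruvate in the cytosol and yields ATP and NADH without oxygen. A transporter brings glucose in, hexokinase traps it as a phosphate, phosphofructokinase commits it to the pathway, and lactate dehydrogenase turns the end product into lactate, which restores NAD+. Quiescent hematopoietic stem cells are known to draw on glycolysis more than on mitochondrial respiration, in a marrow that is poor in oxygen, and hypoxia-inducible factors raise transcription of many of its enzymes.

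The libraries were uneven. Wherever 3 values are given for a group, they are those of replicates 1, 2 and 3 in that order. Of the 4377 genes whose mean reached 10 FPKM, 221, 87 and 16 were listed at 0 in ICAM-1-/- recipients, against 1007, 35 and 31 in WT recipients. Xist was at 73.5 FPKM in ICAM-1-/- replicate 1 and 241 FPKM in WT replicate 1, and at no more than 0.153 FPKM in the other 4 libraries. Icam1 was above 0 in every library, at 10.9 to 32.1 FPKM in ICAM-1-/- recipients and 7.97 to 26.4 FPKM in WT recipients. The LSK markers Kit and Flt3 were above 6 FPKM in every library, while Ly6a, which encodes Sca-1, was listed at 0 in WT replicate 1. The summed level of 6 monocyte and macrophage markers was 707, 13.7 and 103 FPKM in ICAM-1-/- recipients, against 1508, 81.7 and 37.2 FPKM in WT recipients, so it was high in both replicate 1 libraries. Neutrophil markers summed to 139, 285 and 1224 FPKM in ICAM-1-/- recipients, against 606, 1936 and 604 FPKM in WT recipients, and those of B cells, red cells and stroma stayed at or below 134 FPKM in all 6. Beta-s, a beta-globin gene outside the red cell sum, averaged 4.86 log2 units higher in the replicate 1 libraries than in the other 4. T cell markers stayed at or below 2.37 FPKM. FPKM carry no read depth, the counting error behind a value is therefore unknown, and a 0 is reported as listed at 0.

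Glycolysis transcripts were abundant in donor LSK cells and did not separate the recipients. The 10 genes summed to 713, 994 and 2126 FPKM in ICAM-1-/- recipients, against 275, 1599 and 1528 FPKM in WT recipients. The means were 1278 ± 748 FPKM in ICAM-1-/- recipients and 1134 ± 745 FPKM in WT recipients (SD, n = 3 each), and the groups overlapped. In bulk RNA such sums do not tell fewer transcripts per cell from fewer cells of a kind that makes them. Limma's moderated test on log2(FPKM + 1), with Benjamini-Hochberg adjustment over 10477 genes, called 0 of the 10 genes higher and 0 lower at an adjusted p of 0.05, beside 0% of all genes tested. At an unadjusted p of 0.05 the counts were 0 of 10 and 54 of 10477 (0.515%). For none of the 10 did the groups fail to overlap, beside 4.08% of all tested genes (3.23% with every ICAM-1-/- library above and 0.849% with every one below).

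Glucose entry comes first in the pathway. Slc2a1, which encodes the GLUT1 glucose transporter, was at 13.6, 5.46 and 9.98 FPKM in ICAM-1-/- recipients, against 0, 9.36 and 6.20 FPKM in WT recipients. Apart from the library listed at 0 the groups lay in the same range, and the difference of 1.27 ± 1.05 (SE) on the log2 scale had a limma adjusted p of 1.00. Within replicates 2 and 3, with WT replicate 1 and its counterpart left out, this difference was -0.04.

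Hexokinase catalyses the first step, and both isozymes named here were lowest in ICAM-1-/- replicate 2. Hk1 was at 17.1, 5.60 and 36.3 FPKM in ICAM-1-/- recipients, against 7.02, 21.4 and 20.2 FPKM in WT recipients. Hk2, the insulin- and hypoxia-responsive isozyme, was at 16.7, 1.98 and 11.1 FPKM in ICAM-1-/- recipients, against 14.98, 11.1 and 11.9 FPKM in WT recipients. ICAM-1-/- replicate 2 thus stood well below the other 5 libraries for Hk2, which lay close together. The differences were 0.07 ± 0.88 for Hk1 and -0.65 ± 0.88 for Hk2 (SE, limma adjusted p = 1.00 each). Within replicates 2 and 3 the difference of Hk2 was -1.06 ± 1.08 (SE, limma adjusted p = 1.00), and without ICAM-1-/- replicate 2 it was 0.11.

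The middle of the pathway held a wide range of levels. Gpi1, which converts glucose phosphate to fructose phosphate, was at 87.3, 62.5 and 184 FPKM in ICAM-1-/- recipients, against 24.2, 123.5 and 108 FPKM in WT recipients. Pfkl, the liver-type phosphofructokinase subunit, was at 25.0, 8.37 and 34.5 FPKM in ICAM-1-/- recipients, against 7.33, 16.8 and 16.3 FPKM in WT recipients. For both genes ICAM-1-/- replicate 3 was the highest library and WT replicate 1 the lowest. Aldoa, the aldolase that cleaves the doubly phosphorylated hexose, was at 272, 145 and 276 FPKM in ICAM-1-/- recipients, against 102, 224 and 184 FPKM in WT recipients. Means were 111 ± 64.3 and 85.2 ± 53.4 FPKM for Gpi1, and 231 ± 74.4 and 170 ± 62.0 FPKM for Aldoa, in ICAM-1-/- and WT recipients (SD, n = 3 each). The log2 differences of Gpi1, Pfkl and Aldoa were 0.53 ± 0.82, 0.58 ± 0.81 and 0.46 ± 0.71 (SE, limma adjusted p = 1.00 each). Each was smaller than its SE. That of Pfkl was 0.06 within replicates 2 and 3, and 0.19 to 1.15 when 1 library was left out.

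Gapdh, which oxidises glyceraldehyde phosphate and makes NADH, was the most abundant of the 10 in all replicate 2 and 3 libraries. Its level was 8.94, 407 and 909 FPKM in ICAM-1-/- recipients, against 0, 729 and 662 FPKM in WT recipients. Both replicate 1 libraries stood far below the other 4, whichever the recipient. The difference of 0.98 ± 2.34 (SE) had a limma adjusted p of 1.00, and an exact two-sided permutation test over the libraries gave p = 0.8, where 0.1 is the smallest value it allows. Within replicates 2 and 3 the difference was -0.19 ± 0.63 (SE, limma adjusted p = 1.00). Without WT replicate 1 it was -2.17, and without ICAM-1-/- replicate 1 it was 2.96.

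Pgk1 and Pgam1, the next enzymes in the order, had the same split by replicate number. Pgk1, the kinase of the first ATP-yielding step, was at 3.80, 97.0 and 168 FPKM in ICAM-1-/- recipients, against 25.9, 117 and 139 FPKM in WT recipients. Pgam1, the phosphoglycerate mutase, was at 0, 120 and 132 FPKM in ICAM-1-/- recipients, against 0, 113 and 126 FPKM in WT recipients. Outside the replicate 1 libraries Pgam1 was the steadiest of the 10 genes, with the highest of 4 libraries 1.17 times the lowest. The log2 differences were -0.83 ± 1.24 for Pgk1 and 0.05 ± 2.08 for Pgam1 (SE, limma adjusted p = 1.00 each). Without ICAM-1-/- replicate 1 that of Pgk1 was 0.75, and without WT replicate 1 that of Pgam1 was -2.25.

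Ldha, the lactate dehydrogenase subunit that favours lactate, did not share that split. It was at 268, 141 and 365 FPKM in ICAM-1-/- recipients, against 93.1, 234 and 255 FPKM in WT recipients. ICAM-1-/- replicate 1 lay above WT replicates 2 and 3, WT replicate 1 lay lowest, and the difference was 0.43 ± 0.76 (SE, limma adjusted p = 1.00).

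**Figure D1:**
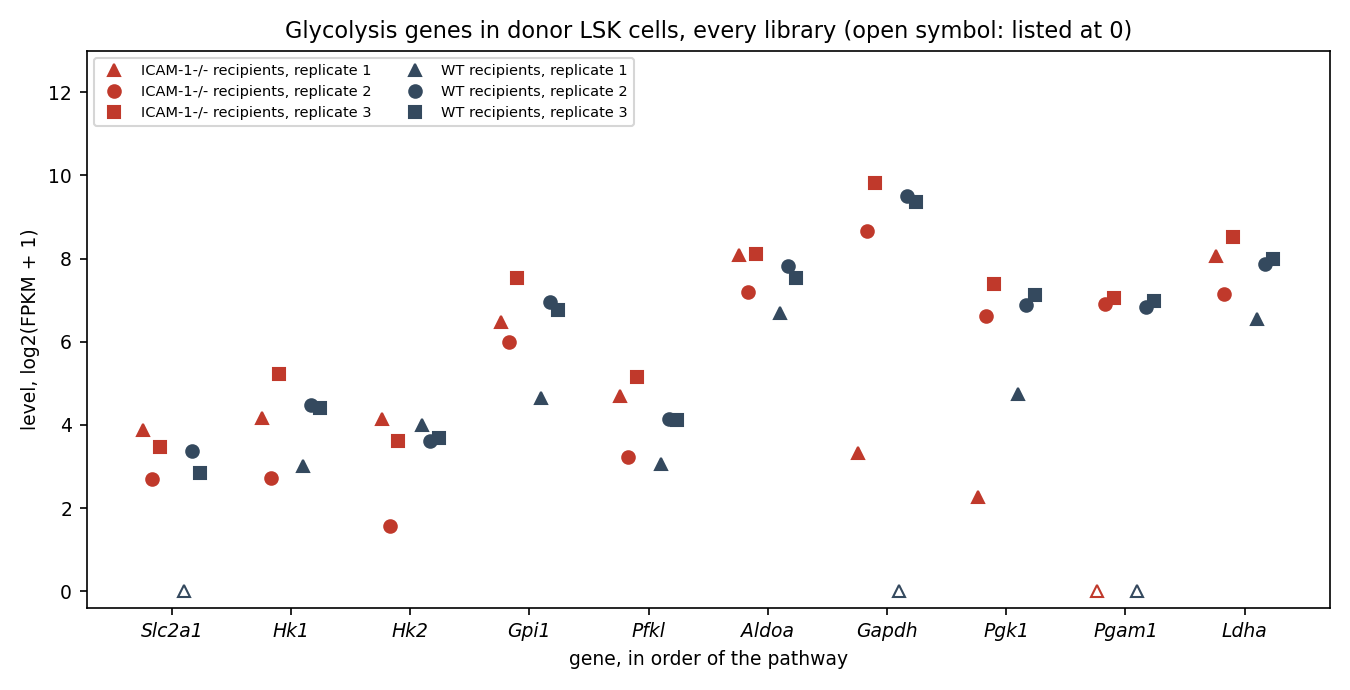
Level of the 10 glycolysis genes, as log2(FPKM + 1), in donor LSK cells from ICAM-1-/- (red) and WT (dark) recipients, 1 symbol per library with the shape giving the replicate number and open symbols values listed at 0. The triangles of Gapdh, Pgk1 and Pgam1 lie below the circles and squares of both groups, while those of Aldoa and Ldha do not stand apart in this way.

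Taken across libraries, 8 of the 10 genes were highest in ICAM-1-/- replicate 3, the exceptions being Slc2a1 and Hk2. That library also had the highest median log2 level over all tested genes, 3.47 beside 1.88 to 3.19 in the others. The share of all tested genes that were highest there was not counted. Among the replicate 2 and 3 libraries, 9 of the 10 were lowest in ICAM-1-/- replicate 2, Pgam1 being the exception, and 76.8% of all tested genes were lowest there as well. The ICAM-1-/- libraries of these numbers therefore lay on either side of the WT libraries for most of the pathway. Within replicates 2 and 3 limma called 0 of the 10 genes, beside 0.175% of 10300 tested genes (0.0971% higher and 0.0777% lower). Groups did not overlap for 1 of the 10, Hk2, by a margin of less than 0.01 FPKM, beside 15.9% of all tested genes (5% lower). The median difference of the 10 genes was 0.45 over all libraries, beside 0.08 for all tested genes, and -0.07 within replicates 2 and 3, beside -0.32. In the blocked fit, with replicate number as a term, 0 of the 10 passed in limma, beside 0.124% of all tested genes (0.105% higher and 0.0191% lower).

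**Figure D2:**
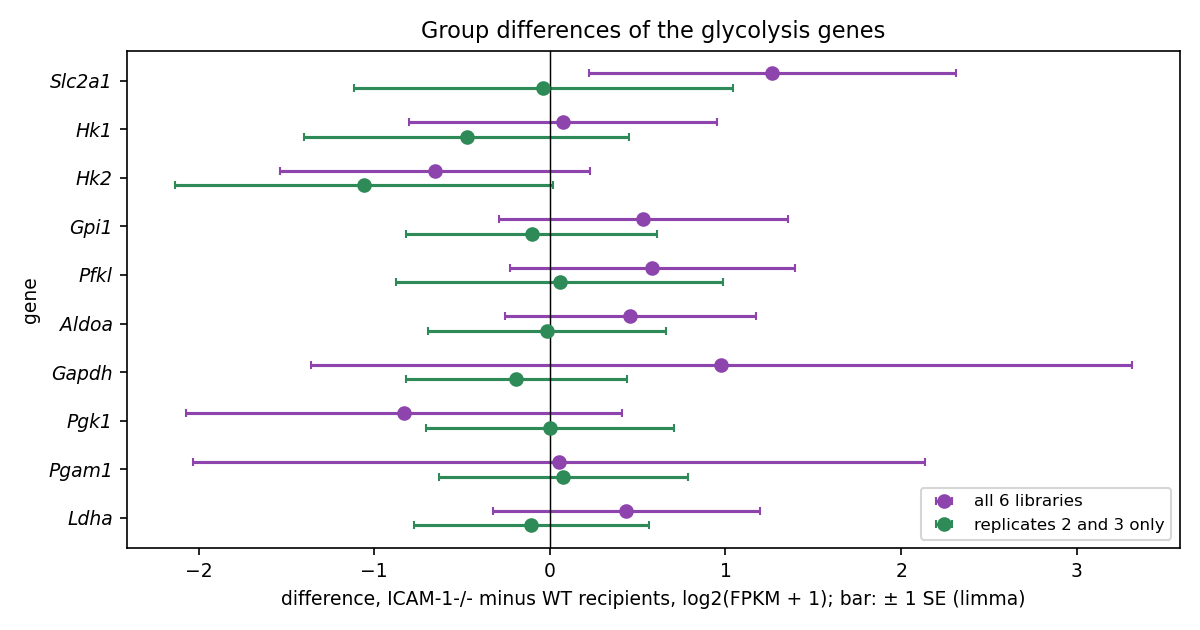
Difference between ICAM-1-/- and WT recipients for each gene on the log2(FPKM + 1) scale with its SE from limma, over all 6 libraries (purple) and within replicates 2 and 3 (green). For Gapdh, the difference of 0.98 ± 2.34 over all libraries stands beside -0.19 ± 0.63 within replicates 2 and 3.

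The order of the levels was set in the 4 libraries of replicates 2 and 3. Gapdh averaged 677 ± 208 FPKM there (SD, n = 4), above Ldha at 249 ± 92.2 and Aldoa at 207 ± 55.9 FPKM. The range of Gapdh did not overlap that of Ldha, whereas Ldha and Aldoa overlapped. Pgk1, Pgam1 and Gpi1 averaged 130.3, 122.6 and 119 FPKM and were not parted by their spread. A step without overlap then led down to Hk1 at 20.9 and Pfkl at 19.0 FPKM, followed by Hk2 at 9.04 and Slc2a1 at 7.75 FPKM. The enzymes from aldolase onward, with Gpi1, were thus more abundant than those of the entry and commitment steps. Ranked among all genes of its own library, Gapdh stood at the 99.6 and 99.5 percentile in ICAM-1-/- replicates 2 and 3, against 99.7 and 99.6 in WT replicates 2 and 3. It stood at 78.7 in ICAM-1-/- replicate 1, and in WT replicate 1, where it is listed at 0, it shared 1 tied rank with all other genes at 0.

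Proportions within a library do not depend on how libraries were scaled. Gapdh made up 40.9% and 42.7% of the summed FPKM of the 10 genes in ICAM-1-/- replicates 2 and 3, against 45.6% and 43.3% in WT replicates 2 and 3. In the replicate 1 libraries its share was 1.26% in ICAM-1-/- and 0% in WT recipients, and there Aldoa made up 38.2% in ICAM-1-/- and 37.1% in WT recipients and Ldha 37.6% in ICAM-1-/- and 33.9% in WT recipients. Aldoa stood at 1.02, 1.03 and 0.756 times the level of Ldha in ICAM-1-/- recipients, against 1.096, 0.957 and 0.721 times in WT recipients. This ratio stayed between 0.721 and 1.096 in all 6 libraries, the replicate 1 libraries included, although Ldha itself differed 3.93-fold between its highest and lowest library. The ratio of Gapdh to Ldha was 0.0334, 2.89 and 2.49 in ICAM-1-/- recipients, against 0, 3.12 and 2.59 in WT recipients.

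**Figure D3:**
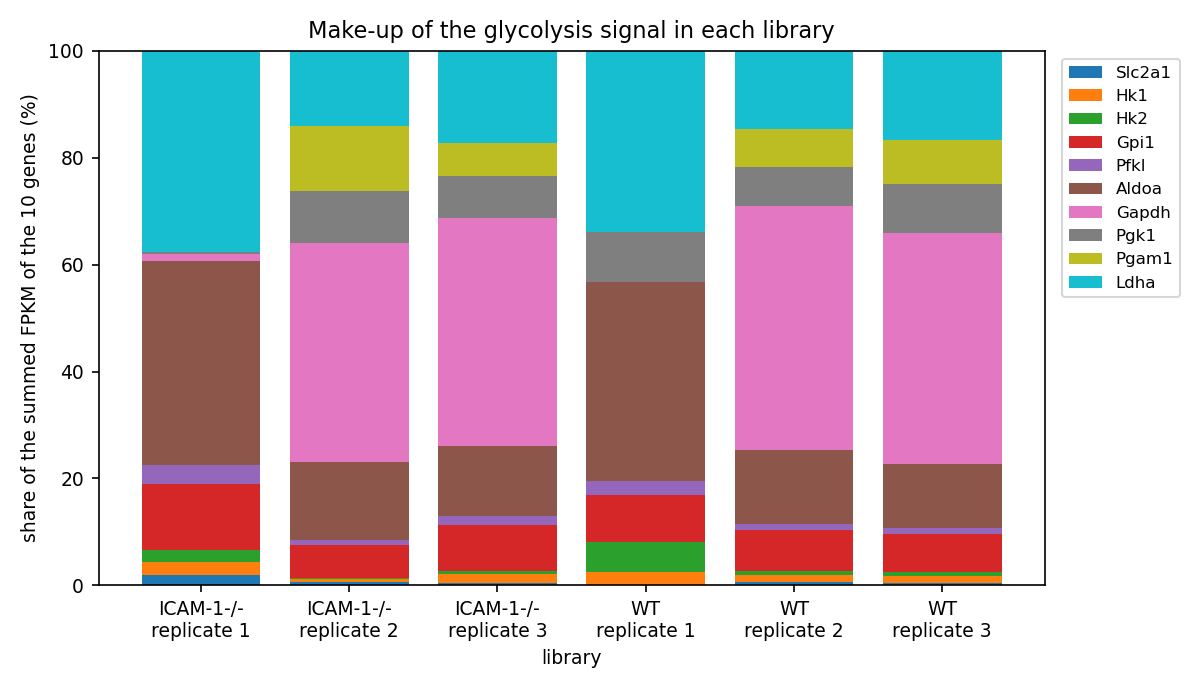
Share of each of the 10 genes in their summed FPKM, as a percentage, for the 3 ICAM-1-/- libraries followed by the 3 WT libraries. Gapdh (pink) holds 40.9% to 45.6% in the replicate 2 and 3 libraries and 1.26% or less in the replicate 1 libraries.

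The sequence each gene shares with other genes was set beside its level in the replicate 1 libraries. Both replicate 1 libraries lay below the other 4 for 3 of the 10 genes, Gapdh, Pgk1 and Pgam1, and for 12.7% of all tested genes. Of the 31-base words in the transcript with the longest coding region, 92.1% for Gapdh, 68.3% for Pgk1 and 42.1% for Pgam1 also occurred in transcripts of other annotated genes (GENCODE M21). The shares were 37.3% for Gpi1, 34.2% for both Aldoa and Ldha, 2.32% for Slc2a1, and below 1% for Hk1, Hk2 and Pfkl. Pgam1 was thus close in this share to Gpi1, Aldoa and Ldha, which did not lie below the other 4 libraries in both replicate 1 libraries. Gapdh had 185 pseudogenes that shared at least 50 such words with it, Ldha 16, Aldoa 6, Pgk1 4, Pgam1 3, Gpi1 1 and the remaining 4 genes 0.

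The closest copies differed in how exact they are, and coding stretches of 60 bases are printed as an illustration. Each stretch was chosen so that its count of differing bases came nearest to that given by the identity over the aligned bases. Over the aligned coding bases the closest pseudogene was identical to Gapdh (1017 bases), Pgk1 (1250 bases) and Pgam1 (762 bases), and 98.6% identical to Gpi1, 96.1% to Ldha and 93.3% to Aldoa. The sequences come from GENCODE M21 transcripts on GRCm38, which need not be the build the authors used. They run 5′ to 3′, and capitals mark bases that differ between gene and copy. Coding bases are counted from the A of the start codon of the transcript with the longest coding region. That region has 1077 bases for Gapdh, 1083 for Ldha and 1254 for Aldoa, and positions can differ in other transcripts. The Gapdh (chr6:125161715-125166467, minus strand) and Pgk1 (chrX:106187100-106203699, plus strand) stretches cover coding bases 91 to 150, as does that of Pgam1 (chr19:41911923-41918660, plus strand). The Ldha (chr7:46841475-46855627, plus strand) stretch covers coding bases 182 to 241 and the Aldoa (chr7:126795234-126800751, minus strand) stretch 204 to 263.
Gapdh: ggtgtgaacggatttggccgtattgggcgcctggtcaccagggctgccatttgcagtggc
Gm7336: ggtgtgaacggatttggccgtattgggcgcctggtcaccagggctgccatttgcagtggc
Pgk1: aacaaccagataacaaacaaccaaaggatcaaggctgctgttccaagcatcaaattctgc
Pgk1-rs7: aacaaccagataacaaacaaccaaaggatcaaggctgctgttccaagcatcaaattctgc
Pgam1: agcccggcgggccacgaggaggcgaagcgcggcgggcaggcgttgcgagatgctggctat
Pgam1-ps2: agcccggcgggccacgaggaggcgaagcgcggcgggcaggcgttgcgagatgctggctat
Ldha: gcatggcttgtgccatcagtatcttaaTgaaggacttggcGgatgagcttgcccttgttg
Gm5452: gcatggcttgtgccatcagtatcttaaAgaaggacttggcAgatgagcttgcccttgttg
Aldoa: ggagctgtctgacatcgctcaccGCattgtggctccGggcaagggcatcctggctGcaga
Gm5276: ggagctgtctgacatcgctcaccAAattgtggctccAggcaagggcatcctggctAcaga

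The stretches of Gapdh, Pgk1 and Pgam1 carry no capital, because the copy matches the gene at every base shown, while those of Ldha and Aldoa differ from their copies at 2 and 4 bases. The stretch of Gpi1, which is not printed, differs from its copy at 1 base. These counts follow from how the stretches were chosen. The mean log2 level of the 2 replicate 1 libraries minus that of the other 4 was -7.69 for Gapdh, -3.50 for Pgk1 and -6.95 for Pgam1, against -0.27 for Aldoa, -0.57 for Ldha and -1.25 for Gpi1. For Slc2a1, with no such pseudogene, it was -1.16, and for Hk2 it was 0.96. Where a value is listed at 0, this difference depends on the pseudocount, the 1 added to each FPKM. That holds for Pgam1 in both replicate 1 libraries, and for Gapdh and Slc2a1 in WT replicate 1. The part of shared sequence in these levels was not tested.

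Shared sequence was also set beside the log2 difference of the replicate 1 libraries over 4256 protein-coding genes whose mean reached 10 FPKM. Ribosomal protein genes were not left out. Where less than 1% of the words were shared, the median of the same log2 difference was 0.24 (2076 genes). Where 30% to 60% were shared it was -1.61 (382 genes), and at 60% or more it was -2.46 (244 genes). Genes at 0 in at least 1 replicate 1 library made up 18.8% of the genes with the least shared sequence and 46.7% of those with the most, against 1.49% and 2.46% at 0 in at least 1 of the other 4 libraries. The macrophage markers were high in the same replicate 1 libraries, and their part in these levels was not tested.

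**Figure D4:**
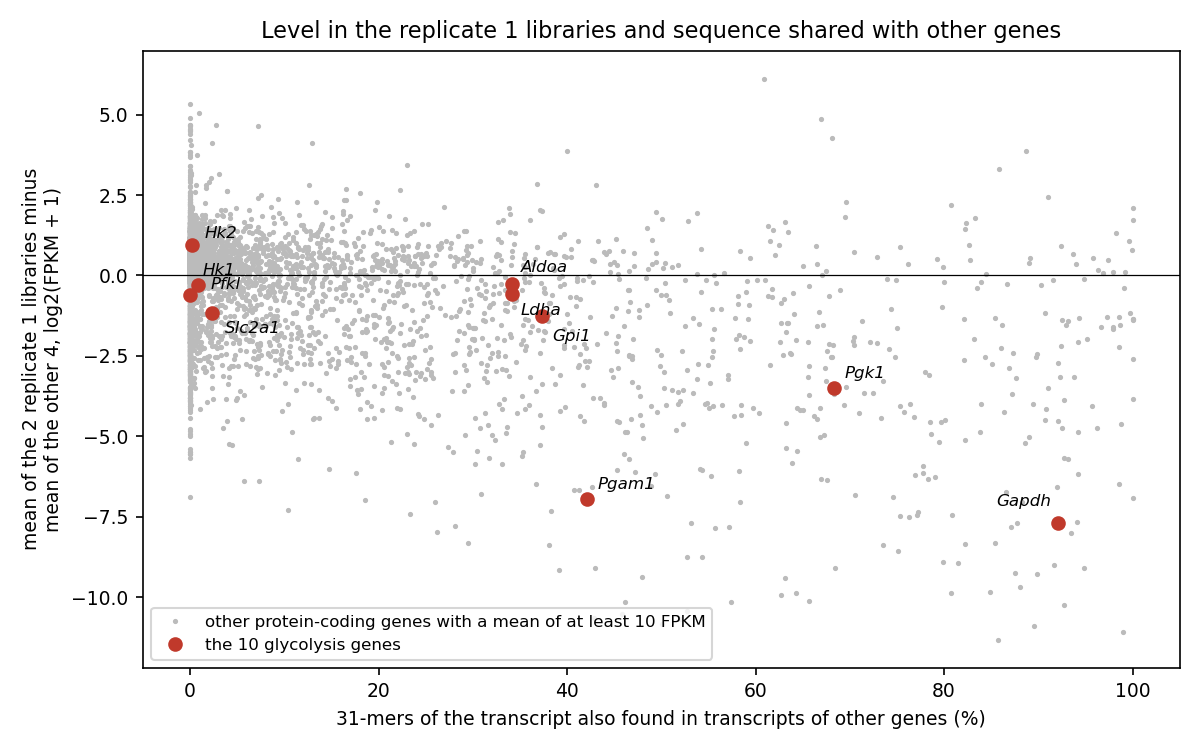
Mean of the 2 replicate 1 libraries minus the mean of the other 4, in log2(FPKM + 1), against the percentage of a transcript's 31-base words found in other genes, for protein-coding genes whose mean reached 10 FPKM (grey) and the 10 glycolysis genes (red). Gapdh, at 92.1% shared, lies at -7.69, whereas Aldoa and Ldha, at 34.2%, lie at -0.27 and -0.57.

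By root mean square difference between centred log2 levels over the 6 libraries, the 4 genes most like Gapdh among 4157, clone-like and small RNA names left out, were Rpl7a, Rps19, Rpl9 and Rpl13, at 0.17 to 0.23 log2 units. Their shares of words in other genes ran from 28.1% for Rps19 to 93.5% for Rpl9. All 4 encode proteins of the cytosolic ribosome. Rpl7a, for example, was at 11.8, 564 and 1029 FPKM in ICAM-1-/- recipients, against 0, 798 and 881 FPKM in WT recipients. Both replicate 1 libraries lay below the other 4 for 68 of 82 tested genes with names of cytosolic ribosomal proteins. Within glycolysis the enolase gene Eno1 ranked 25 and Pgam1 ranked 32 by this measure, whereas Aldoa ranked 1578 and Hk2 ranked 3302. By this measure Gapdh was thus closer to ribosomal protein genes than to most enzymes of its own pathway. The replicate 1 libraries, where Gapdh was at 8.94 (ICAM-1-/-) and 0 FPKM (WT), weigh heavily in it. Within replicates 2 and 3 the ratio of Gapdh to Ldha stayed between 2.49 and 3.12. Likeness within those libraries alone was not ranked.

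Isozyme make-up was compared as shares of summed FPKM, for 5 families with an exact two-sided permutation test each. Among hexokinases, Hk3, an isozyme known from myeloid cells, with a log2 difference of 1.02 ± 0.88 over all libraries and -0.15 within replicates 2 and 3 (SE, limma adjusted p = 1.00 each), held the largest share in 5 of 6 libraries, at 66.3%, 72.2% and 51.0% in ICAM-1-/- recipients, against 20.4%, 54.8% and 48.8% in WT recipients. Hk2 held 16.7%, 7.27% and 11.5% in ICAM-1-/- recipients, against 54.2%, 15.5% and 19.0% in WT recipients. WT replicate 1 was the library that stood apart for both, and the ICAM-1-/- shares of Hk2 overlapped those of WT in the range from 15.5% to 16.7%. The difference in the Hk2 share was -17.7 percentage points, with an exact permutation p of 0.2 and 0.75 after adjustment over the 5 families. Without WT replicate 1 the difference was -5.40 percentage points, and within replicates 2 and 3 it was -7.83.

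Pfkl held 53.8%, 65.6% and 55.7% of phosphofructokinase in ICAM-1-/- recipients, against 100%, 52.1% and 52.3% in WT recipients, with Pfkm and Pfkp listed at 0 in WT replicate 1. Ldha held 100%, 65.1% and 95.6% of lactate dehydrogenase in ICAM-1-/- recipients, against 100%, 96.3% and 95.7% in WT recipients. ICAM-1-/- replicate 2 was the exception, since Ldhb, the subunit that favours pyruvate, was at 75.6 FPKM there and at no more than 16.97 FPKM in the other 5 libraries. Ldhb was listed at 0 in both replicate 1 libraries, so the Ldha shares of 100% rest on those values. Of the words of Ldhb, 41.4% occurred in other genes. Aldoa held at least 98.9% of the sum with Aldoc in every library. Slc2a1 held 80.2%, 74.98% and 44.4% of the sum with Slc2a3 in ICAM-1-/- recipients, against 0%, 54.5% and 50.2% in WT recipients. None of the 5 tests passed, with exact permutation p of 0.2 to 1.0, and 0.75 to 1.0 after adjustment, where 0.1 is the smallest unadjusted value possible.

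**Figure D5:**
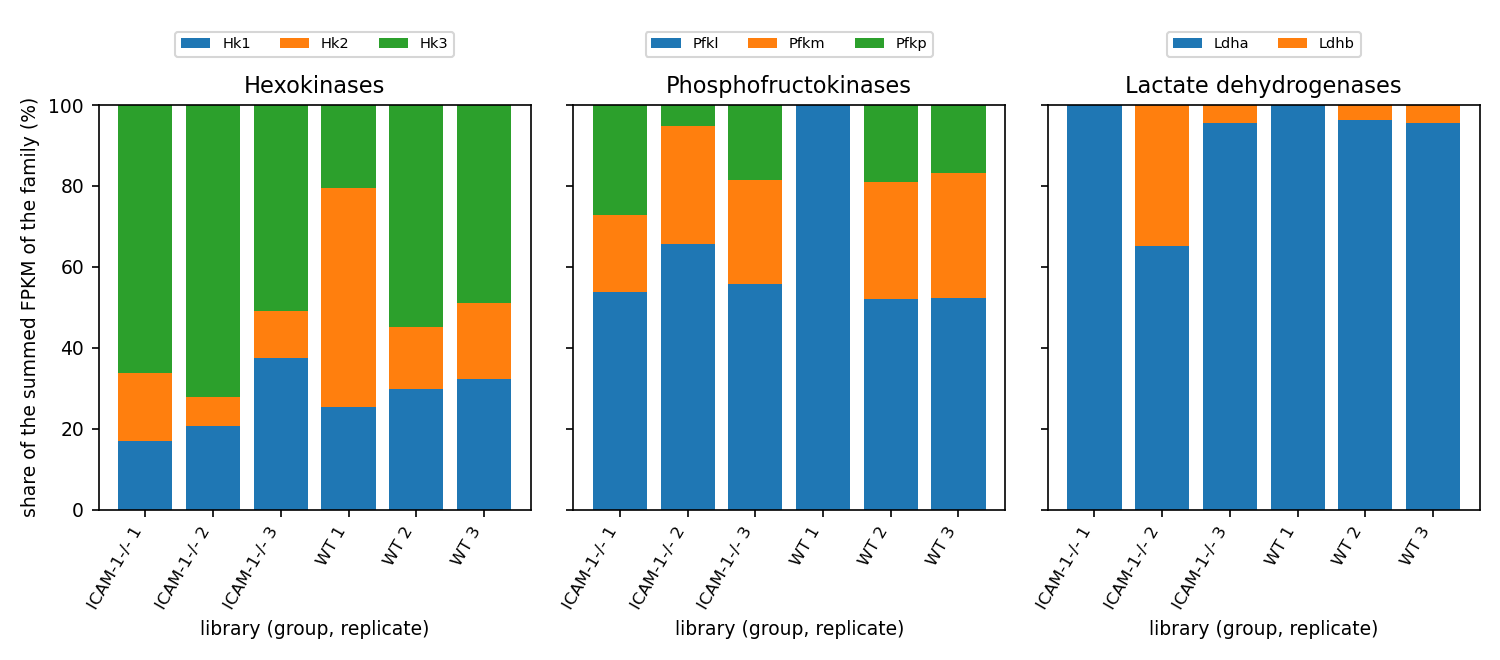
Shares of hexokinase, phosphofructokinase and lactate dehydrogenase genes in the summed FPKM of their family, as a percentage, for the 3 ICAM-1-/- libraries followed by the 3 WT libraries. Hk3 (green, left) is the largest part in every library except WT replicate 1, and Ldha (blue, right) holds 65.1% in ICAM-1-/- replicate 2 and at least 95.6% in the other 5 libraries.

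Other glycolysis genes gave no call either. Of 17 on the list 16 had a row and 12 were tested, and limma called 0 higher and 0 lower, with 8 positive and 4 negative differences and a median of 0.48, beside 0.08 for all tested genes. Eno1, the enolase, was at 4.92e-05, 104 and 234 FPKM in ICAM-1-/- recipients, against 3.82e-05, 174 and 161 FPKM in WT recipients, so it too was near 0 in both replicate 1 libraries, and 77.2% of its words were shared. The pyruvate kinase gene, under its older symbol Pkm2, was at 180, 496 and 390 FPKM in ICAM-1-/- recipients, against 120, 276 and 235 FPKM in WT recipients. ICAM-1-/- replicates 2 and 3 thus lay above the WT libraries, with a difference of 0.72 ± 0.76 over all libraries and 0.79 within replicates 2 and 3 (SE, limma adjusted p = 1.00 each). Its share of words in other genes was 50.9%.

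Pgam2, the muscle-type mutase, had the smallest p of the list. It was at 5.85, 26.8 and 0.983 FPKM in ICAM-1-/- recipients, against 0, 0.575 and 0.594 FPKM in WT recipients. Every ICAM-1-/- library lay above every WT library, with a difference of 2.41 ± 1.05 (SE, unadjusted p = 0.0419 and adjusted p = 1.00 in limma). That order held for 3.23% of all tested genes. Tpi1, the triose phosphate isomerase, was at 189, 102 and 228 FPKM in ICAM-1-/- recipients, against 140, 135 and 140 FPKM in WT recipients, and was the glycolysis gene whose WT values lay closest together.

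Neighbouring pathways were called in neither direction. Of 12 tested genes of lactate and pyruvate handling limma called 0, with 9 positive and 3 negative differences (median 0.56). Dld, a subunit of pyruvate dehydrogenase, was at 30.1, 19.4 and 27.0 FPKM in ICAM-1-/- recipients, against 0, 18.05 and 13.2 FPKM in WT recipients, a difference of 2.01 ± 1.09, and of 0.54 within replicates 2 and 3 (SE, limma adjusted p = 1.00 each). Pdhb and Pdha1, subunits of the same complex, differed by 1.62 ± 1.33 and 0.77 ± 0.67, and by -0.30 and 0.59 within replicates 2 and 3 (SE, limma adjusted p = 1.00 each). Pdha1 was at 46.2, 63.0 and 46.7 FPKM in ICAM-1-/- recipients, against 20.5, 35.7 and 35.5 FPKM in WT recipients, without overlap. Dld did not overlap either, and every ICAM-1-/- library lay above every WT library for 3.23% of all tested genes. Such genes were not counted over the lists. Of 7 tested genes of fructose bisphosphate control and gluconeogenesis 0 were called, with 4 positive and 3 negative differences (median 0.05). Pfkfb1, a bifunctional regulator of phosphofructokinase, was at 0, 0 and 0.416 FPKM in ICAM-1-/- recipients, against 31.9, 1.22 and 0.208 FPKM in WT recipients, so that its WT level rested on replicate 1. Pfkfb4, of the same family, was at 3.26, 3.88 and 3.69 FPKM in ICAM-1-/- recipients, against 0.0467, 3.05 and 1.75 FPKM in WT recipients, without overlap, and differed by 1.02 ± 0.88 (SE, limma adjusted p = 1.00). Pfkfb2 differed by -1.08 ± 0.88 (SE, limma adjusted p = 1.00).

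The pentose phosphate pathway, which draws off glucose phosphate to make NADPH and ribose, had 0 of 10 genes called. Over all libraries 7 differences were positive and 3 negative, with a median of 0.35. Within replicates 2 and 3 all 10 were negative, with a median of -0.64, where 69.7% of all tested genes were negative with a median of -0.32, and none passed in limma there. Pgd, its second dehydrogenase, was at 194, 30.7 and 85.3 FPKM in ICAM-1-/- recipients, against 12.98, 99.1 and 64.4 FPKM in WT recipients, and these ranges overlapped. Prps1 and Prps2, which make the ribose donor of nucleotide synthesis, differed by 1.04 ± 1.26 and 0.95 ± 1.17 over all libraries, both being listed at 0 in WT replicate 1. Of 13 tested hypoxia genes 0 were called, with 7 positive and 6 negative differences (median 0.13). Hif1a, the oxygen-regulated subunit of the hypoxia-inducible factor, was at 14.1, 37.1 and 12.02 FPKM in ICAM-1-/- recipients, against 37.7, 14.5 and 22.7 FPKM in WT recipients. Egln3, an oxygen sensor that is also a target of the factor, was at 1.64, 0.641 and 10.01 FPKM in ICAM-1-/- recipients, against 17.1, 5.56 and 6.91 FPKM in WT recipients, a difference of -1.43 ± 0.99 (SE, limma adjusted p = 1.00). Bnip3, a mitophagy receptor, and Ddit4, an inhibitor of mTORC1 signalling, differed by 1.101 ± 1.13 and 1.21 ± 1.25, and both were listed at 0 in WT replicate 1.

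Genes often used beside Gapdh as references showed both kinds of pattern. Ppia, a cyclophilin with 57.4% of its words in other genes, was listed at 0 in both replicate 1 libraries and lay between 587 and 1651 FPKM in the other 4. Actb, encoding beta-actin, was at 2031, 880 and 1727 FPKM in ICAM-1-/- recipients, against 1396, 1594 and 1399 FPKM in WT recipients, with no drop in replicate 1 and 35.3% of its words shared. Tubb5, a tubulin with 4.47% shared, was at 695, 357 and 744 FPKM in ICAM-1-/- recipients, against 394, 556 and 591 FPKM in WT recipients. Tfrc, the transferrin receptor, and Hprt, of purine salvage, differed by -1.17 ± 0.95 and 0.58 ± 0.67 (SE). None of the 16 reference genes on the list passed between recipients in limma.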

How the data were processed

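The authors deposited FPKM per gene, 1 column per library, matched to samples by title. The submitters' processing notes list TopHat2 2.0.11, cutadapt and Cufflinks 2.1.1. Build, annotation, the handling of multi-mapping reads, and whether the replicate 1 libraries were processed with the same settings as the others: not given in the sources used here. Each library held 24 to 111 values above 0 and under 0.001 FPKM, so whole reads were not recovered. No pair of libraries shared more than 1 value above 0. The 10477 genes averaging 1 FPKM or more were tested with limma 3.58.1 in R 4.3.3 (group only, mean-variance trend). The scale was log2(FPKM + 1), which understates changes of low genes. A check on simulated data required recovery only of large changes at a spread smaller than that of these data. It does not show what the test would detect at their own spread. Differences are ICAM-1-/- minus WT. Same-numbered libraries deviated together, with correlations of 0.35, 0.13 and 0.31 after removing group means. The blocked fit therefore used the numbers as pairing, while the main fit and the permutation tests were unpaired. However, ICAM-1-/- replicate 3 correlated as strongly with WT replicate 2 (0.31), and ICAM-1-/- replicate 2 at 0.15 with WT replicate 3. Replicates 2 and 3 are thus not told apart as pairs, and the pairing comes from the data. Shared 31-mers came from GENCODE M21 by symbol (97.9% matched; both strands). The named genes were the 10 members, the 3 list genes of smallest p, and the 5 genes most like Gapdh, of which some are not reported here; Eno1, Pkm2, Tpi1, Hif1a and the reference genes were added after their values were seen. Members and lists were chosen with earlier results of these data known.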

Additional observations from a re-analysis of the deposited data

How the results depend on the processing

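None of the 10 genes, and no gene of the 5 pathway lists, was called under any of 17 alternatives, and the median difference of the 10 genes moved by less than the spread between libraries (0.15 to 0.72 across the settings that kept all 6 libraries, and -0.30 to 0.75 when 1 library was left out). Counts over all genes, 0 higher and 0 lower at the main setting, were 11 and 2 in the fit with a replicate block, 10 and 8 within replicates 2 and 3, 3 and 1 with library weights, and 0 to 2 higher and 0 to 1 lower when 1 library was left out. The replicate block changed no call of a glycolysis gene. Signs of the differences turned in 27 cases and the cause was not tested. Within replicates 2 and 3 the differences were -0.037 for Slc2a1, -0.47 for Hk1, -0.10 for Gpi1, -0.017 for Aldoa, -0.19 for Gapdh and -0.11 for Ldha. That of Hk1 was -0.037 when FPKM were rescaled without small RNA genes. Library weights gave -1.15 for Gapdh and -1.50 for Pgam1, and values under 0.001 FPKM taken as missing gave -2.17 for Gapdh. With a pseudocount of 0.1 the difference of Gapdh was 2.04, beside 0.98 at the main setting, and that of Slc2a1 was 2.34, beside 1.27. Leaving out 1 library gave ranges of -2.17 to 2.96 for Gapdh, -2.25 to 2.38 for Pgam1, -1.82 to 0.75 for Pgk1, -1.17 to 0.11 for Hk2, -0.52 to 0.73 for Hk1, -0.20 to 0.95 for Gpi1 and -0.027 to 0.82 for Ldha. Median-of-ratios scaling moved the median of all genes to 0.25, and that of the 10 genes to 0.72. The difference in the Pfkl share was 8.49 percentage points within replicates 2 and 3, and leaving out 1 library gave -17.7 to 6.21 points for Pfkl, -24.8 to -5.40 for Hk2, -17.0 to 0.473 for Ldha and -0.325 to 0.327 for Aldoa. FPKM carry no read depth, so counting error could not be set against these ranges.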
